A study of Mus musculus with 4 samples.

Results

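Toll-like receptor genes were followed in plasmacytoid dendritic cells (pDCs) from the spleens of Flt3 KO and WT mice. The members were taken by gene symbol from a list of 10 Toll-like receptors, written with earlier results of these data known, and 9 of the 10 were measured among 19938 genes: Tlr1, Tlr2, Tlr3, Tlr4, Tlr6, Tlr7, Tlr8, Tlr9 and Tlr12. Tlr5, the flagellin receptor gene, was not analysed here. Each of the 9 was read by 1 probe set with a single gene symbol. The study compared Flt3 KO pDCs (2 biological replicates) with WT pDCs (2 biological replicates), sorted as mature cells from collagenase-digested spleens of mice at steady state. The product of Flt3 is a receptor tyrosine kinase whose ligand is a cytokine needed for dendritic cell development. The sources used here give no strain, no age, no structure of the knockout allele and no number of animals behind a replicate. The p-values rest on the spread between these samples, with the variance of each gene drawn towards that of other genes. The labels call the replicates biological, but how far their spread reflects separate animals or technical steps is not known.

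Toll-like receptors are membrane proteins that detect microbial molecules through a leucine-rich repeat domain and signal through a cytoplasmic TIR domain. TLR1, TLR2, TLR4 and TLR6 work largely at the cell surface on lipids and lipoproteins of microbes, whereas TLR3, TLR7, TLR8 and TLR9 sense nucleic acids inside endosomes, to which the membrane protein UNC93B1 carries them. pDCs are known for TLR7 and TLR9, which signal through the adaptor MYD88 and the transcription factor IRF7 to bring about a large output of type I interferon. In mice TLR12 takes part in recognition of the protein profilin of Toxoplasma.

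Values are the authors' processed probe-set intensities, converted here to log2. The median intensity over all probe sets was 57.2 and 56.2 on the Flt3 KO arrays and 55.1 and 55.3 on the WT arrays, and the number of arrays limits the precision. The knockout was visible in its own gene. Log2 intensities for Flt3 were 8.46 and 8.61 on the Flt3 KO arrays, against 10.71 and 10.77 on the WT arrays. Flt3 signal remained at percentiles of 85.4 and 86.6 on the Flt3 KO arrays, against 98.2 and 98.3 on the WT arrays. Which exons the probes cover is not known here. The pDC label was set beside its markers. All 10 measured pDC markers lay above the array median on every array. So did 8 of 9 markers of type 2 and 5 of 8 of type 1 conventional dendritic cells. For monocytes and macrophages it was 15 of 19, for B cells 6 of 9 and for neutrophils 1 of 8. This position alone therefore does not set pDCs apart. The defining lectin gene Siglech read 12.51 and 12.53 in Flt3 KO cells and 12.65 and 12.64 in WT cells. Differences were taken as Flt3 KO minus WT of log2 values, with the moderated standard error (SE) of limma, and a gene counts as changed at a Benjamini-Hochberg adjusted p under 0.05 over all 19938 genes.

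Of the 9 receptors, 4 lay above the median log2 intensity of all genes on every array (Tlr7, Tlr9, Tlr12 and Tlr2) and 5 lay below it on every array (Tlr1, Tlr3, Tlr4, Tlr6 and Tlr8). Among all genes, 47.5% were above the median on all 4 arrays. Tlr7, Tlr9 and Tlr12 were also above the upper quartile on every array, as were 23.5% of all genes. A position on the array is a description of signal and not of transcript number, because probe sets differ in how strongly they bind, and levels of different receptors are therefore not set against each other. The members nearest the line were Tlr6 on the dim side, at percentiles of 45.9 and 48.9 in Flt3 KO and 49.0 and 46.6 in WT, and Tlr2 on the bright side, at 71.1 and 75.3 in Flt3 KO and 68.3 and 67.9 in WT.

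**Figure D1:**
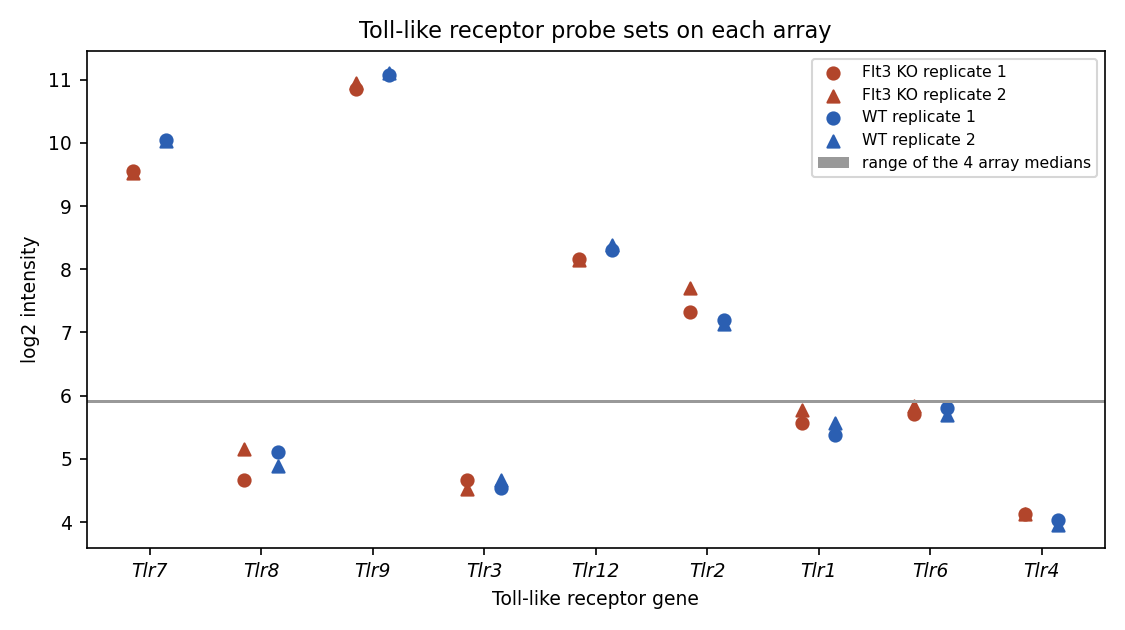
Log2 intensity (vertical axis) of the 9 measured Toll-like receptor genes (horizontal axis) on each Flt3 KO and WT array; each point is 1 array and the grey band spans the 4 array medians, 5.88 to 5.93. Tlr7, Tlr9, Tlr12 and Tlr2 sit above the band in both genotypes and the other receptors sit below it.

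Between the genotypes, 1 of the 9 receptors changed: Tlr7 fell in Flt3 KO pDCs. No receptor rose. Over all genes the same limma fit called 2.39%, of which 1.31% were lower and 1.08% higher in Flt3 KO; with so few members, 1 call is a statement about Tlr7 and not about the family. The median difference of the 9 receptors was −0.0144, beside −0.00103 for all genes. Replicates of the genotypes did not overlap for 6 receptors, 3 lower (Tlr7, Tlr9 and Tlr12) and 3 higher (Tlr1, Tlr2 and Tlr4) in Flt3 KO, while 25.3% of all genes had replicates that did not overlap and were lower and 21.9% had such replicates and were higher, 47.2% together. At an unadjusted limma p under 0.05 there were 4 receptors (Tlr7, Tlr9, Tlr12 and Tlr2), against 17.1% of all genes. These 4 are the receptors above the array median. With genes above the median tested alone, 2551 of 9969 had an unadjusted limma p under 0.05. SEs were 0.048 to 0.12 for the 4 receptors and 0.093 to 0.17 for the 5 dimmer ones.

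**Figure D2:**
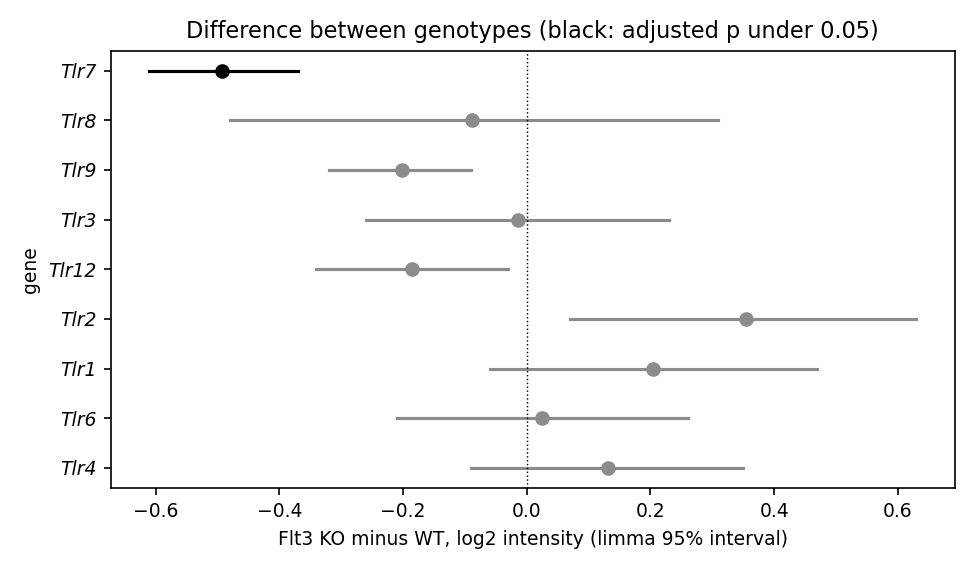
Flt3 KO minus WT difference in log2 intensity (horizontal axis) for each receptor (vertical axis), with the limma 95% interval before adjustment for multiple testing; black marks an adjusted p under 0.05. Tlr7, at −0.49, is the receptor in black, and the intervals of Tlr9, Tlr12 and Tlr2 exclude 0 without passing the adjusted threshold.

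The nucleic acid sensors come first, as the receptors for which pDCs are known. Tlr7, the single-stranded RNA sensor gene, read 9.56 and 9.52 log2 units in Flt3 KO pDCs, against 10.04 and 10.03 in WT pDCs. Both Flt3 KO arrays were lower than both WT arrays, and the gap between the genotypes was many times the gap between replicates. Tlr7 fell by 0.49 (SE 0.051, limma 95% interval −0.61 to −0.37, adjusted p = 0.0076), so that its mean signal in Flt3 KO was 0.711 of that in WT. With 1 array left out the difference stayed between −0.51 and −0.47, but the adjusted p ranged from 0.073 to 0.28, and without the intensity trend in the variance it was 0.060. In sorted bulk samples, fewer cells carrying a transcript and less transcript per cell cannot be told apart.

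Tlr7 lies on the X chromosome, where its neighbours in the RefSeq gene order are Tlr8 and Prps2, a phosphoribosyl pyrophosphate synthetase gene. Prps2 had 8.14 and 8.25 in Flt3 KO and 8.42 and 8.29 in WT, a difference of −0.16 (limma adjusted p = 0.34). Because Tlr7 is X-linked, sex-linked genes were read as well. Xist, the RNA of the inactive X chromosome, was below the array median on every array (4.60 and 4.34 in Flt3 KO, 4.59 and 4.52 in WT). The Y-linked genes Kdm5d, Eif2s3y and Uty were above the median on every array, with differences of −0.12, 0.10 and −0.09 and adjusted p-values of 0.41 to 0.58. Signals of these sex-linked genes thus had the same pattern on all 4 arrays. The neighbours and sex-linked genes were chosen after the Tlr7 value was known.

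Tlr9, the sensor gene for unmethylated CpG DNA, had 10.85 and 10.94 in Flt3 KO pDCs and 11.08 and 11.10 in WT pDCs. The Flt3 KO arrays were again below both WT arrays. The difference of −0.20 (SE 0.048, 95% interval −0.32 to −0.09) did not pass the threshold (limma adjusted p = 0.095), and across the alternatives its adjusted p ranged from 0.051 to 0.41. Tlr9 stood at the 98.5 and 98.7 percentiles of the Flt3 KO arrays and the 98.8 and 98.9 percentiles of the WT arrays.

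The remaining nucleic acid sensors on the list of members lay under the array median. Tlr8, the X-linked neighbour of Tlr7 and an RNA sensor gene in human, had 4.66 and 5.15 in Flt3 KO and 5.11 and 4.88 in WT. Its genotypes overlapped, and the difference of −0.09 had an interval from −0.48 to 0.31. Tlr3, which encodes the double-stranded RNA sensor and is known from type 1 conventional dendritic cells, had 4.66 and 4.52 in Flt3 KO and 4.54 and 4.67 in WT. The values overlapped here too (difference −0.01, interval −0.26 to 0.23). For both genes the limma interval gives the differences compatible with 2 arrays per genotype, before adjustment for multiple testing. It is not a limit of detection.

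Tlr12, the profilin receptor gene, had 8.17 and 8.15 in Flt3 KO pDCs and 8.30 and 8.38 in WT pDCs. Both Flt3 KO arrays were below both WT arrays, and the difference of −0.18 (SE 0.064, interval −0.34 to −0.03) did not pass (limma adjusted p = 0.21).

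Among the receptors of microbial lipids, Tlr2, whose product pairs with TLR1 or TLR6 to bind lipoproteins, had 7.33 and 7.70 in Flt3 KO pDCs and 7.19 and 7.14 in WT pDCs. Both Flt3 KO arrays were above both WT arrays, but they lay 0.36 apart, as far as the genotypes did. The difference of 0.35 (SE 0.12, interval 0.07 to 0.63) did not pass (limma adjusted p = 0.20); leaving out Flt3 KO replicate 2 gave 0.173, and leaving out Flt3 KO replicate 1 gave 0.535. Tlr1, encoded next to Tlr6, had 5.57 and 5.78 in Flt3 KO and 5.38 and 5.56 in WT. This was a difference of 0.20 (interval −0.06 to 0.47), for which the values with those arrays left out were 0.0987 and 0.309. For Tlr6 the values were 5.71 and 5.84 in Flt3 KO and 5.81 and 5.69 in WT, which overlapped, with a difference of 0.03 (interval −0.21 to 0.26). Tlr4, the lipopolysaccharide receptor gene, had 4.12 and 4.13 in Flt3 KO and 4.04 and 3.95 in WT, a difference of 0.13 (interval −0.09 to 0.35). None of the last 3 genes passed in limma (adjusted p = 0.41, 0.93 and 0.53).

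Surface receptors such as TLR2 and TLR4 are known from monocytes and macrophages, and markers of these cells differed between the arrays. Of 19 measured markers 5 rose (Cd14, Cx3cr1, Fn1, Ccr2 and Lyz2) and 0 fell. Over all genes 1.08% were called higher and 1.31% lower. An unadjusted limma p under 0.05 was met by 10 of the 19 markers and by 17.1% of all genes. With genes above the median tested alone, 2551 of 9969 met it. Above the median on every array were 47.5% of all genes. The summed intensity of the 19 was 6254 and 8175 on the Flt3 KO arrays and 5558 and 5113 on the WT arrays, and 15 of the 19 lay above the array median on every array. Relative to the WT mean their median log2 value was 0.159 in Flt3 KO replicate 1 and 0.558 in Flt3 KO replicate 2, where Tlr2 stood at 0.173 and 0.535. The list was split: 15 of the 19 markers were higher in Flt3 KO replicate 2 than in Flt3 KO replicate 1 and 4 were lower. Among the 5 that rose, Cd14 and Cx3cr1 were higher there by 0.55 and 0.43, whereas Ccr2, Lyz2 and Fn1 differed by 0.03, −0.02 and −0.12. The same gap between the Flt3 KO replicates was 0.36 for Tlr2, 0.49 for Tlr8, 0.21 for Tlr1, 0.13 for Tlr6, 0.01 for Tlr4 and −0.13 for Tlr3. Tlr1 had a gap of 0.18 between the WT replicates as well, in which the marker median ran the other way (0.089 and −0.089). Tlr7 (−0.472 and −0.513), Tlr9 (−0.245 and −0.158) and Tlr12 (−0.175 and −0.195) were lower on both Flt3 KO arrays, as was the median of the pDC markers (−0.210 and −0.207), of which 4 of 10 fell and 0 rose. An unadjusted limma p under 0.05 was met by 7 of those 10 pDC markers. The part of other cells in the receptor values was not tested. Markers of B cells, which also carry TLR7 and TLR9, had 0 of 9 called in limma (3 at an unadjusted p under 0.05), with a summed intensity of 995 and 931 in Flt3 KO and 1050 and 1035 in WT. Those of type 1 conventional dendritic cells had 0 of 8 called in limma (1 unadjusted) and those of neutrophils 0 of 8 (2 unadjusted). Those of type 2 conventional dendritic cells had 2 higher and 1 lower of 9 (5 unadjusted).

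**Figure D3:**
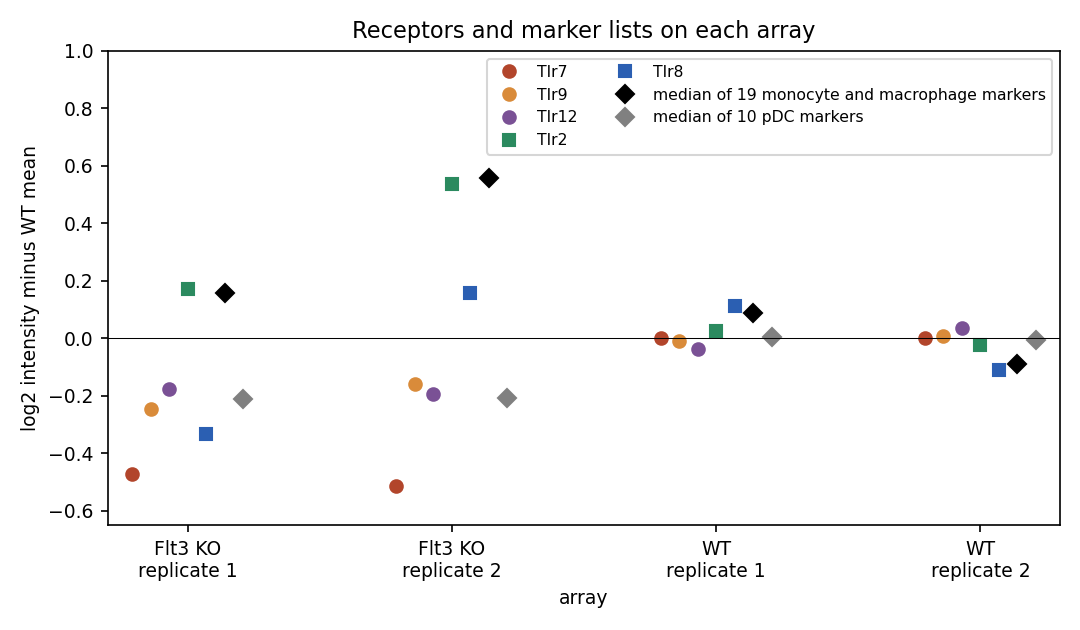
Log2 intensity minus the WT mean (vertical axis) on each array (horizontal axis) for 5 receptors and for the medians of 19 monocyte and macrophage markers and 10 pDC markers; each point is 1 array. Tlr7, Tlr9 and Tlr12 are below 0 on both Flt3 KO arrays, while Tlr2 and the monocyte and macrophage median are higher in Flt3 KO replicate 2 (0.535 and 0.558) than in Flt3 KO replicate 1 (0.173 and 0.159).

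Genes whose values over the 4 arrays ran closest to those of Tlr7 and Tlr9 were found by the distance between values centred on each gene's mean, among 9499 named genes above the median. For Tlr7 they were the glutamate receptor gene Grm8, the clathrin adaptor gene Ap1m2 and the semaphorin gene Sema4b, which had differences of −0.49, −0.48 and −0.46. For Tlr9 they were the MHC class II gene H2-Eb1, the deubiquitinase gene Usp3 and Nudt22, with differences of −0.19, −0.20 and −0.21. Over 4 arrays such likeness says little more than that the differences between genotypes were of similar size.

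The start regions of Tlr9, Tlr12 and Tlr2 are printed because these are the receptors above the array median for which the RefSeq promoter table used here held an entry; it held entries for 7 of the 9 receptors. Each run is the 250 bases before the annotated start, 5′ to 3′ on the gene's strand, credited to RefSeq with build GRCm38.p6. Capitals mark matches to CACCTG, an E-box form read by E proteins such as TCF4 or to GAGGAAG, a core read by the ETS factors Spi-B and PU.1, on either strand.
Tlr9, GRCm38.p6 chr9:106222348-106222597, plus strand: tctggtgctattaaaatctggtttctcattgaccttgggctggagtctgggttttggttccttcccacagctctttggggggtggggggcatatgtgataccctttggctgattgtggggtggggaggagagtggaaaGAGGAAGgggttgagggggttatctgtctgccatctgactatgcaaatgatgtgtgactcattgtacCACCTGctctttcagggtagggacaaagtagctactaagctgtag
Tlr12, GRCm38.p6 chr4:128618620-128618869, minus strand: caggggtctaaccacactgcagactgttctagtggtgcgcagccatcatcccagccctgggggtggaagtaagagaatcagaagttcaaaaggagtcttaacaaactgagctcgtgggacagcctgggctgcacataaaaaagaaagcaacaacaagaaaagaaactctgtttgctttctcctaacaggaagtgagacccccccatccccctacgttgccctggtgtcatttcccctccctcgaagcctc
Tlr2, GRCm38.p6 chr3:83841609-83841858, minus strand: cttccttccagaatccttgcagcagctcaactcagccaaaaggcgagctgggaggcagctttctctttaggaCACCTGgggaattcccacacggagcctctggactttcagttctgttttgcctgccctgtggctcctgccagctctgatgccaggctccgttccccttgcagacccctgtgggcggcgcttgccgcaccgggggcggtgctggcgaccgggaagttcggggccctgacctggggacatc
The Tlr9 region held 1 E-box, whose first base lay 45 bases before the start, and 1 Spi-B core at 112 bases. The Tlr2 region held 1 E-box at 178 bases, and neither motif was in the Tlr12 window. Tlr1, a receptor under the array median, also held both in 1 of its windows, with the E-box at 82 bases and the Spi-B core at 23 bases, and the windows of Tlr3, Tlr6 and Tlr8 held neither. Of 32851 promoter windows of this length, 17.2% held the E-box and 10.6% the Spi-B core. The motifs do not overlap in these windows, and a match describes the letters and not a bound site.

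Other genes of the pathway were read by role from lists of 88 genes, of which 81 were measured. Of the 81, 5 rose and 6 fell, a share called of 13.6% beside 2.39% of all genes, in lists chosen with earlier results of these data known. Above the median on every array were 13 of 14 trafficking, 18 of 20 adaptor and kinase and 10 of 10 transcription factor genes. So were 15 of 16 negative regulators, 4 of 7 co-receptors and 6 of 14 cytokines, beside 47.5% of all genes. When genes above the median were tested alone, 724 of 9969 passed, so 2.39% is not a like comparison. In that same fit 17 pathway genes passed. In limma, 2 of the 81 passed without Flt3 KO replicate 1 and 0 without any one of the other arrays (24 to 30 at an unadjusted p under 0.05). Of the 11 calls, 0 held without the intensity trend and 4 held with all probe sets tested together (Ccl3, Cd14, Lgmn and Spib). Among 7 co-receptors and ligand-delivery genes 1 rose and 1 fell (median difference −0.081). Cd14, which hands lipopolysaccharide to TLR4, had 9.11 and 9.65 in Flt3 KO and 8.34 and 8.26 in WT and rose by 1.08 (SE 0.16, limma adjusted p = 0.020); it is also one of the 19 monocyte and macrophage markers. Cd180, a TLR4-related surface protein gene, averaged 9.69 in Flt3 KO and 9.98 in WT and fell by 0.29 (adjusted p = 0.043). Its partner gene Ly86 had a difference of −0.07.

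Folding, trafficking and endosomal processing genes had 14 measured members, of which 1 rose and 1 fell (median −0.072). Of 5 protease genes on the list, Lgmn rose, Ctsl fell, and Ctsb, Ctss and Ctsk had differences of −0.06, 0.17 and 0.06 that did not pass. Lgmn, which encodes asparagine endopeptidase, had 10.54 and 10.68 in Flt3 KO and 10.14 and 10.05 in WT and rose by 0.51 (limma adjusted p = 0.012). Ctsl, the cathepsin L gene, had 10.35 and 10.26 in Flt3 KO and 10.77 and 10.63 in WT and fell by 0.40 (adjusted p = 0.027). Unc93b1 had a difference of −0.07 (interval −0.17 to 0.04).

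None of 20 measured adaptor, kinase and ubiquitin ligase genes passed in limma (median −0.0377). Of the 20, 8 had an unadjusted limma p under 0.05, a threshold met by 17.1% of all genes. Since 18 of the 20 lay above the median on every array, that share is not a like comparison. With genes above the median tested alone, 2551 of 9969 met the threshold. The lowest p-values were those of the adaptor gene Myd88, with 9.73 and 9.71 in Flt3 KO and 9.51 and 9.44 in WT (difference 0.25, adjusted p = 0.075), and the kinase gene Ikbke, with 6.60 and 6.68 in Flt3 KO and 6.98 and 6.96 in WT (difference −0.33, adjusted p = 0.089).

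Of 10 transcription factor genes 3 fell and 0 rose (median −0.153). Spib, which encodes the ETS factor Spi-B of pDCs and B cells, had 10.89 and 10.75 in Flt3 KO and 11.28 and 11.31 in WT and fell by 0.47 (limma adjusted p = 0.011); it is also one of the 4 pDC markers that fell. Irf8, a dendritic cell transcription factor gene, fell by 0.31 (adjusted p = 0.022). Irf7 had 10.67 and 10.63 in Flt3 KO and 10.88 and 11.02 in WT and fell by 0.30, at the very edge of the threshold (adjusted p = 0.049995). The NF-kB genes Rel and Rela had differences of 0.02 and 0.01.

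Negative regulators had 2 risers and 0 fallers among 16 (median 0.0411). Dusp1, a MAP kinase phosphatase gene, had 11.40 and 11.87 in Flt3 KO and 10.84 and 10.93 in WT and rose by 0.75 (limma adjusted p = 0.038). Irak3, which encodes IRAK-M, an inhibitor of MYD88 signalling known from monocytes and macrophages, had 6.42 and 6.70 in Flt3 KO and 5.97 and 5.70 in WT and rose by 0.72 (adjusted p = 0.042).

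Of 14 cytokine genes that Toll-like receptors can induce 1 rose and 1 fell (median 0.10). Ccl3, a chemokine gene, had 8.68 and 8.84 in Flt3 KO and 9.66 and 9.36 in WT and fell by 0.75 (limma adjusted p = 0.018). Il12a, the p35 chain gene of IL-12, had 7.96 and 8.15 in Flt3 KO and 7.63 and 7.38 in WT and rose by 0.56 (adjusted p = 0.049). Of the type I interferon genes, Ifnb1 (4.76 and 4.51 in Flt3 KO, 4.69 and 4.48 in WT), Ifna2, Ifna4 and Ifna9 were under the array median on every array, in cells from mice at steady state. Ifna5 was above it on every array (6.77 and 6.77 in Flt3 KO, 6.71 and 6.75 in WT); interferon-α genes are near-identical copies whose probes can share signal, so these values are uncertain.

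**Figure D4:**
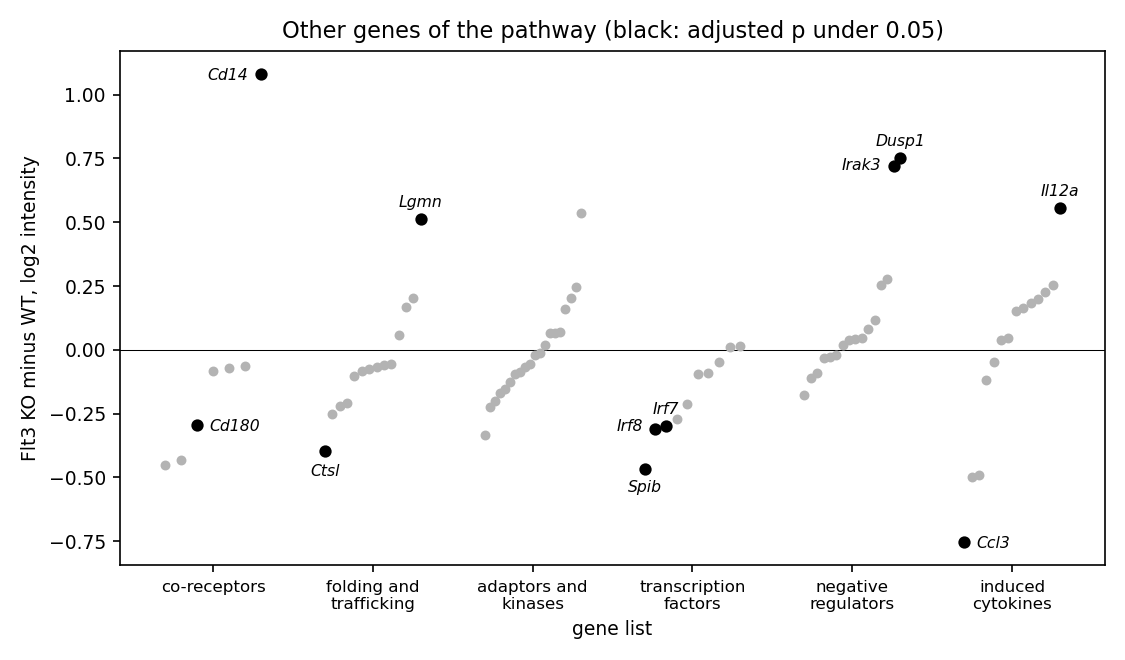
Flt3 KO minus WT difference in log2 intensity (vertical axis) of each measured gene of the 6 pathway lists (horizontal axis); each point is 1 gene, black and named at an adjusted p under 0.05. The 11 named genes lie on both sides of 0, from Ccl3 at −0.75 to Cd14 at 1.08, and the adaptor and kinase list has none.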

How the data were processed

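Whole-transcript GeneChip arrays were hybridised with biotin-labelled RNA amplified with an Ambion kit, per the labels. The authors deposited 1 processed intensity per probe set and array, on a linear scale, for 30177 probe sets on 4 arrays; background correction, summarisation and scaling were not stated. The platform annotation gave 21789 probe sets a single symbol, 1621 several and 6767 none. Of each of 19938 genes the single-symbol probe set with the highest mean was kept. Intensities were converted to log2 with no added constant and no filter on dim genes, and fitted with limma 3.58.1 in R 4.3.3 (lmFit, eBayes with an intensity trend, no covariate). Benjamini-Hochberg adjustment ran over all genes; an exact two-sided permutation test of 2 against 2 arrays cannot go below 0.3333. The fit was tested on simulated data. Their spread was drawn without regard to intensity, so that test does not bear on the intensity trend. Named were all members, Flt3, up to 6 genes of each pathway list past the threshold (otherwise the 2 with the lowest p), the 3 genes nearest Tlr7 and Tlr9, and genes marked as chosen later or given for their role. Members, lists and markers were chosen with earlier results of these data known. Alternatives covered scaling, the variance model, a constant of 16 added to intensities, a filter on dim genes, probe set handling, the replicate number as a block and single arrays left out.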

Additional observations from a re-analysis of the deposited data

How the results depend on the processing

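The count of receptors above the array median was 4 under every scaling, probe set and added-constant alternative run. It was 3 when the upper quartile took the place of the median. Centring, quantile normalization and an added constant keep the order of genes within an array. Averaging cannot move receptors that have a single probe set. Those settings could therefore hardly have changed the count. The Tlr7 fall kept its sign in all 13 alternatives (−0.53 to −0.46) and its call in 8 of them. Where only the variance model, the block or the set of tested genes differed, the estimate was the same by construction. With 1 array left out the sign could not turn, because the replicates of the genotypes did not overlap. The constant sign is therefore not separate support. With 1 array left out, limma had 1 residual degree of freedom: 0 of 9 receptors passed in each of the 4 fits (2 to 3 at an unadjusted p under 0.05), 0 to 54 of all genes did, and 0 to 2 of the 81 pathway genes did (24 to 30 unadjusted). Without the intensity trend 108 of 19938 genes (3136 unadjusted), 0 receptors (4 unadjusted) and 0 pathway genes (28 unadjusted) passed. With genes above the median only, 724 genes and 17 pathway genes passed; with all 30177 probe sets tested together, 291 probe sets and 4 pathway genes did; with arrays centred on their medians, 17 pathway genes did and the calls over all genes split into 217 higher and 452 lower, beside 215 and 261. Differences of Tlr6, Tlr3 and Tlr8 turned sign. With 1 array left out, Tlr6 ran from −0.042 to 0.0926, Tlr3 from −0.0837 to 0.0549 and Tlr8 from −0.333 to 0.158. These are the 3 receptors whose replicates overlapped, which lets the sign turn when an array is dropped. The dim receptors Tlr1 and Tlr4 did not overlap and kept their sign. Tlr6 was also −0.0129 after centring and −0.0159 under quantile normalization, and the cause of that turn was not tested. Same-numbered replicates did not deviate together (correlation of deviations across genes −0.017). With the replicate number as a block, 375 genes, 1 receptor (Tlr7, adjusted p = 0.010) and 8 pathway genes passed; Cd180 (0.070), Irf7 (0.063), Il12a (0.063) and Irak3 (0.054) lost their calls. Irf7 also lost its call with 16 added to intensities, and Dusp1 with robust variance.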

Other observations

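Tlr13, the sensor gene for bacterial ribosomal RNA, was measured but was not on the list of members. Its log2 intensities were 5.90 and 6.08 in Flt3 KO pDCs and 5.97 and 5.65 in WT pDCs, above the array median on 2 of the 4 arrays and overlapping between genotypes (difference 0.18, limma adjusted p = 0.52). Tlr9 lies between Twf2 and Alas1 among measured coding genes, which had differences of −0.03 and −0.16, and Tlr12 between Zscan20 and Phc2, which had −0.10 and 0.04; none of these 4 neighbours passed in limma (adjusted p = 0.33 to 0.86).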
